A study of Mus musculus with 10 samples.

Results

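Calvarial osteoblasts of the genotypes Runx2_cHom_KO and Runx2_cHet_KO were compared, gene by gene, in 4 of the 10 libraries of a mouse skeletal series. The embryos were C57BL/6 at E17.5, and cells were released with collagenase and dispase from the frontal bone and the front of the parietal bone of the skull roof. Each genotype had 2 libraries, called below cHet (Runx2_cHet_KO, the reference) and cHom (Runx2_cHom_KO). The labels do not spell out the abbreviations, and the Cre driver, the floxed exons and the number of embryos behind each library are not given in the sources used here. All 4 libraries carry a Runx2 knockout genotype, and no unaltered osteoblasts are among them. The values were FPKM, fragments scaled to transcript length and to the mapped fragments of the library. The comparison covered 11546 of 22189 single-gene rows, those reaching 1 FPKM in 2 libraries or more, and changes are given as cHom minus cHet on the log2(FPKM + 1) scale.

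Runx2 is the transcription factor that commits mesenchymal cells to the osteoblast lineage, acting with the partner subunit Cbfb at a short DNA element. Sp7 (osterix) works downstream of it, and the mature osteoblast then secretes type I collagen, osteopontin (Spp1), bone sialoprotein and osteocalcin before some cells become osteocytes. Frontal and parietal bone form directly from mesenchyme, with no cartilage template, next to skin, sutures, muscle attachments and meninges.

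Depth was known only in relation, because the table holds no counts. In rows of very low value a read in cHet library 1 was worth 0.83 of a read in cHet library 2, 0.794 of a read in cHom library 1 and 0.842 of a read in cHom library 2, which makes cHet library 1 the deepest. Summed FPKM ran from 535500 to 566331, and the 20 most abundant rows held 39.8% to 42.0% of it. Some libraries stood apart in cells other than osteoblasts. The 22 tested macrophage and monocyte genes summed to 751 FPKM in cHet library 1 against 112 in cHet library 2, 153 in cHom library 1 and 187 in cHom library 2. Xist, transcribed from the inactive X, was at 0.0225 and 74.9 FPKM in the cHet libraries and at 9.73 and 40.4 FPKM in the cHom libraries. The Y-linked Ddx3y was at 17.9 and 0.0142 FPKM in the cHet libraries and at 17.3 and 5.16 FPKM in the cHom libraries. Each cHet library held mainly 1 of these transcripts, while both cHom libraries held both. The part of these differences in the results below was not tested.

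In cHom libraries, genes of mature osteoblasts and p53 target genes were among the falls, and genes of connective tissue and skeletal muscle among the rises. Of the 11546 genes, 266 rose (2.3%) and 163 fell (1.41%) at a limma adjusted p under 0.05 and a change of at least 2-fold. Every list count below is to be read against these shares. The groups overlapped in 0 of these 429 genes, which selection by p and size makes nearly certain, so it adds no support to the calls. The median change over all rows was -0.03. The genes that rose started low, at a median of 2.67 FPKM in cHet libraries and 9.25 FPKM in cHom libraries, whereas those that fell went from a median of 12.1 to 3.79 FPKM. Among the changed genes 33 rises and 17 falls were 4-fold or more on this scale, and 25 rises and 5 falls reached 100 FPKM in a group mean. A gene under 1 FPKM in both libraries of a group entered the test only through the other group, so the filter fixed the direction of its difference. Of 258 such genes that entered through the cHom libraries 62 rose, and of 131 that entered through the cHet libraries 29 fell. They make up 62 of the 266 rises and 29 of the 163 falls, and the counts and medians of lists with such members are given below as descriptions. A further 425 genes passed the adjusted p with a change under 2-fold. The calls rest on both cHom libraries. Limma fits 1 variance per gene over both groups, so each SE and adjusted p draws on the spread of the cHom pair as well as of the cHet pair. Without 1 cHom library that spread comes from the cHet pair alone. Leaving out cHom library 1 gave 0 limma calls, and 1520 genes kept an unadjusted p under 0.05. Leaving out cHom library 2 gave 1 call, Snord61 (a small nucleolar RNA, chosen after its values were seen, at 842 and 876 FPKM in the cHet libraries and at 0 and 2097 FPKM in the cHom libraries), and 1631 genes kept an unadjusted p under 0.05. Without cHet library 1 there were 394 rises and 162 falls, and without cHet library 2 there were 346 and 269. Since no label states that each library is a different embryo, p-values here reflect library-to-library spread alone, and that spread may be technical.

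**Figure D1:**
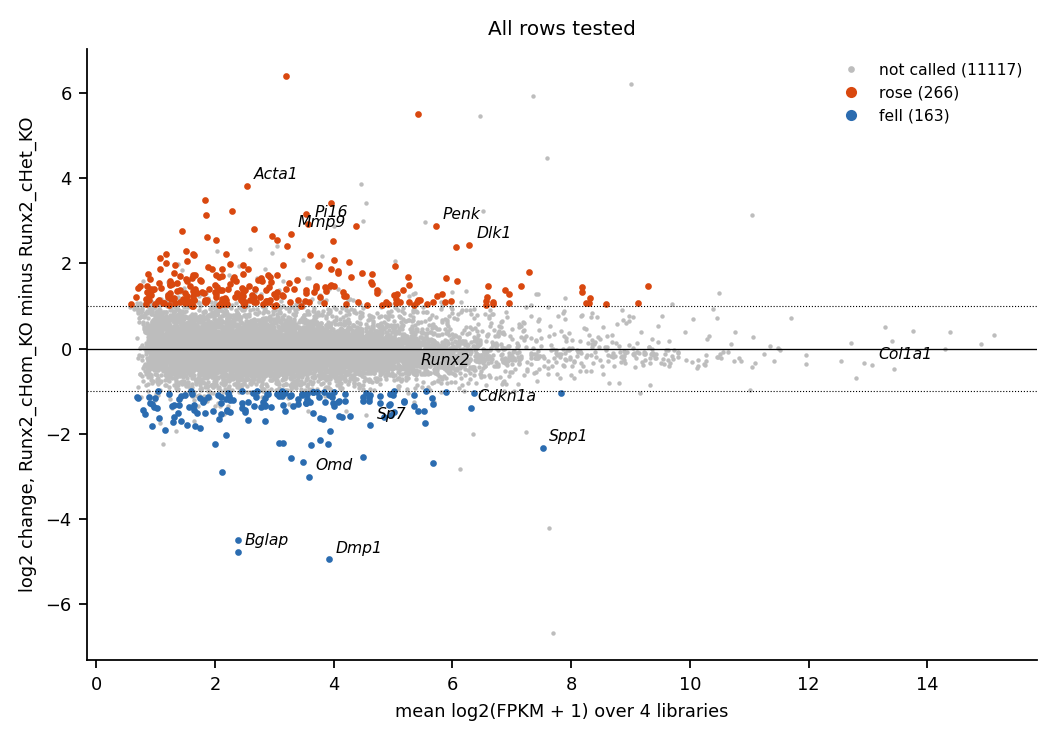
Each point is 1 of the 11546 genes tested. The horizontal axis is the mean log2(FPKM + 1) over the 4 libraries and the vertical axis the log2 change, Runx2_cHom_KO minus Runx2_cHet_KO, with dotted lines at 2-fold; the 266 rises are orange and the 163 falls blue. Dmp1, Bglap and Omd lie at the bottom, Runx2 and Col1a1 lie between the dotted lines, and grey points with large changes had libraries that disagreed within a group.

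The level of Runx2 itself comes before the other genes. The cHet libraries held 43.4 and 53.9 FPKM of Runx2 and the cHom libraries 32.9 and 32.6 FPKM. The cHom libraries were both lower and the groups did not overlap. The change of -0.55 (SE 0.13) did not pass the test, with an adjusted p of 0.0694, and the two-sided exact permutation p of 0.333 was the smallest that 2 libraries against 2 can give. A value for the whole gene does not check whether an exon was deleted.

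The markers of the cells fell further than Runx2 itself. Sp7 was at 39.8 and 50.7 FPKM in the cHet libraries and at 12.8 and 11.5 FPKM in the cHom libraries, a fall of 3.73-fold between means (log2 change -1.81, SE 0.15, adjusted p = 0.00972). Spp1 was at 461 and 365 FPKM in the cHet libraries and at 71.5 and 90.8 FPKM in the cHom libraries, a fall of 5.09-fold (log2 change -2.33, SE 0.17, adjusted p = 0.00929). For both genes every cHet library was far above every cHom library. In bulk RNA, fewer osteoblasts and less of a transcript in each osteoblast cannot be told apart, here or below.

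Of 20 osteoblast transcription factors tested, 4 fell and 0 rose, with a median change of -0.49. Beside Sp7 these were Tcf7, a nuclear effector of Wnt signalling, Dlx3, a homeobox factor of bone and skin, and Runx3, a paralog of Runx2. Tcf7 went from 49.2 and 61.1 FPKM to 21.8 and 23.2 FPKM (log2 change -1.25, adjusted p = 0.0152). Dlx3 and Runx3 were low genes, at 4.61 and 4.20 and at 5.45 and 6.47 FPKM in the cHet libraries, and fell by 1.27 and 1.13 on the log2 scale. Other abundant members did not pass the test: Atf4, a regulator of amino acid supply in osteoblasts, was at 126 FPKM in each cHet library and 169 and 171 FPKM in the cHom libraries, and Creb3l1, a regulator of collagen secretion, at 133 and 112 against 97.9 and 90.7 FPKM.

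**Figure D2:**
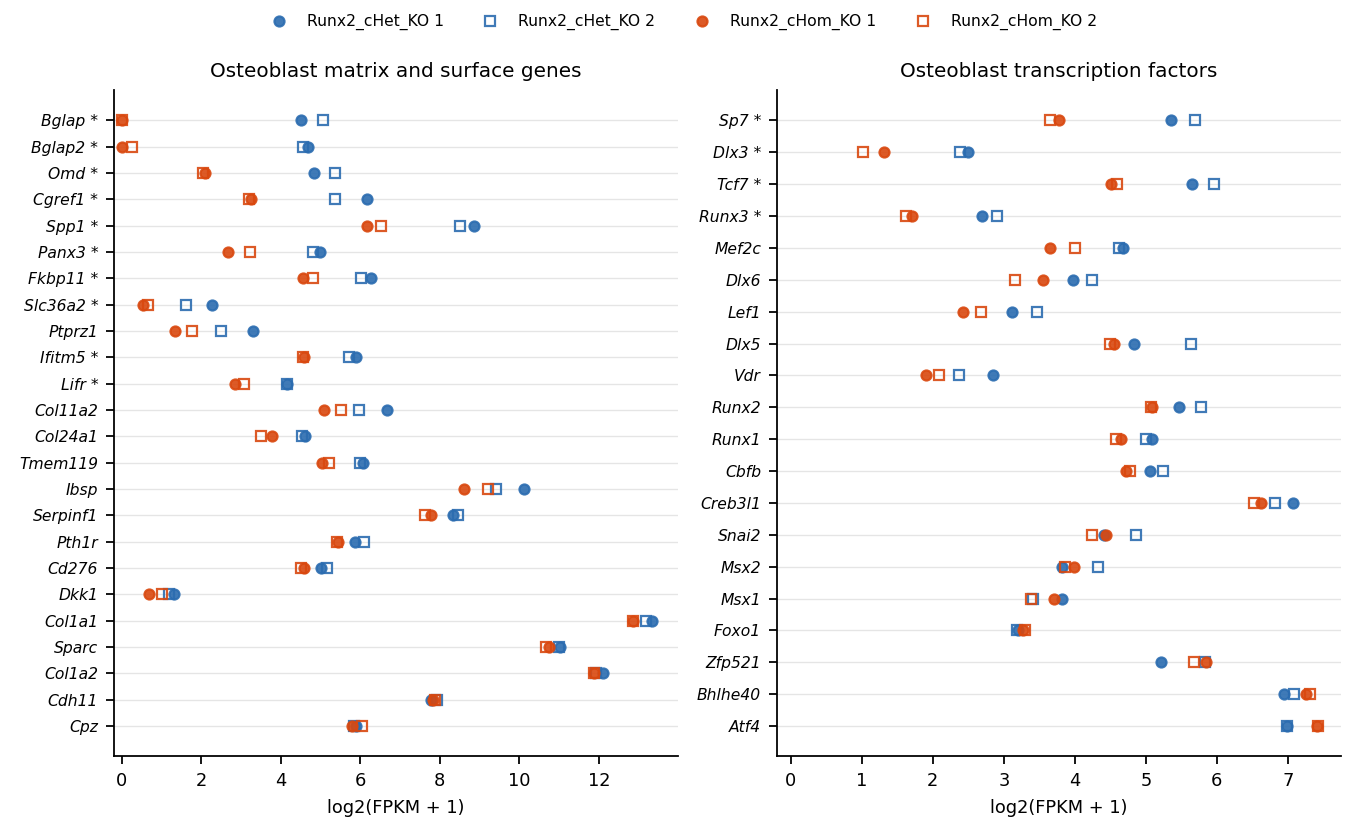
Level of every tested member of the osteoblast matrix and surface list (left) and the osteoblast transcription factor list (right), in log2(FPKM + 1), with 1 marker per library and an asterisk on genes that passed the test. Blue Runx2_cHet_KO markers lie to the right of orange Runx2_cHom_KO markers for most genes, with the widest gaps at Bglap, Bglap2 and Omd and narrow gaps at Col1a1 and Col1a2.

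Genes of the bone matrix and the osteoblast surface fell unevenly. Of 24 tested, 10 fell and 0 rose, with a median change of -0.98; 3 of the falls, Bglap, Bglap2 and Slc36a2, passed the filter through the cHet libraries alone. Bglap (osteocalcin), the most osteoblast-restricted matrix protein, was at 21.7 and 32.6 FPKM in the cHet libraries and was listed at 0 in both cHom libraries. Its paralog Bglap2 was at 24.7 and 22.8 FPKM in the cHet libraries and at 0 and 0.205 FPKM in the cHom libraries. The transcripts of this pair are nearly identical, so the division of reads between them is uncertain. Neither exceeded 0.205 FPKM in a cHom library, though a listed 0 can be a failed estimate. Omd (osteomodulin), a small keratan sulphate proteoglycan of bone, was at 27.4 and 40.1 FPKM against 3.25 and 3.16 FPKM (log2 change -3.02, SE 0.20, adjusted p = 0.00641). The other falls were Cgref1, Panx3 (a hemichannel of osteoblasts and hypertrophic chondrocytes), Fkbp11 (a prolyl isomerase of secretory cells), Slc36a2 (an amino acid transporter), Ifitm5 (a membrane protein of mineralising osteoblasts) and Lifr (the leukaemia inhibitory factor receptor). Panx3 went from 30.9 and 27.2 FPKM to 5.42 and 8.396 FPKM, and Ifitm5 from 58.3 and 51.9 FPKM to 23.0 and 22.4 FPKM.

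The most abundant matrix genes lay nearer to each other. Col1a1, the main chain of type I collagen, was at 10274 and 9304 FPKM in the cHet libraries and at 7413 and 7457 FPKM in the cHom libraries (log2 change -0.39, adjusted p = 0.103). Ibsp (bone sialoprotein) was at 1102 and 679 FPKM against 392 and 589 FPKM (log2 change -0.85, adjusted p = 0.148). For both genes the groups did not overlap, yet the change did not pass the test. Of 26 genes that process or crosslink collagen, 1 rose and 0 fell, near the shares of 2.3% and 1.41% over all rows tested. This does not show equal levels. Of the 26, 17 had an unadjusted limma p under 0.05, beside 3110 of all 11546 rows, and 10 changes were above 0 and 16 below. The rise was Tmem38b, an ion channel of the endoplasmic reticulum, which went from 163 and 203 FPKM to 468 and 450 FPKM (log2 change 1.33, adjusted p = 0.0136).

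Upstream sequence of the genes with the largest falls was examined for the letters that Runx proteins bind, TGTGGT and the related TGCGGT, on either strand in the 250 bases before each RefSeq start (GRCm38.p6). Of the 22 genes formed by Runx2, Sp7, Spp1 and the largest falls, 15 were in the promoter table and 10 of them held a hexamer in at least 1 window. The 10 include Runx2, which did not pass the test. Counted by window, the unit of the shares given later for all genes tested, 10 of 22 held a hexamer. No share by gene was computed over all genes. The windows below belong to 4 genes that fell and held TGTGGT, which reads ACCACA where it lies on the opposite strand and is printed in capitals, and to Omd, which also fell and held neither hexamer.
Bglap, chr3:88384467-88384716, minus strand: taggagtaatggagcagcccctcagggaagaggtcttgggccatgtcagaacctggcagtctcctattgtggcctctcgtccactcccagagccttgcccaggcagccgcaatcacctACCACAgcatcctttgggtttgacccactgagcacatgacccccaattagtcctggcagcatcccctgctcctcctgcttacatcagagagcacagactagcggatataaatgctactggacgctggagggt
Spp1, chr5:104434861-104435110, plus strand: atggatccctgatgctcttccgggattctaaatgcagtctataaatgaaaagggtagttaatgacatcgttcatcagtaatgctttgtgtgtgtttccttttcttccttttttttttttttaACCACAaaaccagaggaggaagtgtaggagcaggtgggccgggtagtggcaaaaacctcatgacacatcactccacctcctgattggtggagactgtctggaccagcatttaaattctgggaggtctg
Dmp1, chr5:104202367-104202616, plus strand: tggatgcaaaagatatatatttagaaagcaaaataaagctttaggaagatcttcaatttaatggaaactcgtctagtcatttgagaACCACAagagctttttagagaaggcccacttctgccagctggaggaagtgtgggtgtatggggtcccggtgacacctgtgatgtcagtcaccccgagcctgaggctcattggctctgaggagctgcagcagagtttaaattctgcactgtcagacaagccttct
Enpp1, chr10:24712160-24712409, minus strand: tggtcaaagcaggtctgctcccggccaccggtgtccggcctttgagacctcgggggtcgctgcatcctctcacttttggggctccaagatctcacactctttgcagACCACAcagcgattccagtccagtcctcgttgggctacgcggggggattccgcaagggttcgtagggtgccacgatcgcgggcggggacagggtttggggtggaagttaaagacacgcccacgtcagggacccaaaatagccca
Omd, chr13:49582212-49582461, plus strand: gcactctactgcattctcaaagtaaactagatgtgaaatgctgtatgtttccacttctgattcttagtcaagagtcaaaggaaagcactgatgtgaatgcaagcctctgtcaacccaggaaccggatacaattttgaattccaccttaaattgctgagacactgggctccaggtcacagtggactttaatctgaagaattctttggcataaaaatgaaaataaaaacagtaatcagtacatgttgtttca
The first base of the capitals lay at -132 in Bglap, -128 in Spp1, -164 in Dmp1 and -144 in Enpp1, counted from the annotated start. Spp1 and Dmp1 each have a second annotated start whose window held neither hexamer.

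Over all genes, either hexamer was found in 36 of 158 windows of genes that fell (22.8%), in 26 of 215 windows of genes that rose (12.1%) and in 1867 of 11021 windows of all genes tested (16.9%). TGTGGT alone was in 13.3%, 8.37% and 10.2% of the same windows, and across the whole promoter table the shares were 18.6% for either hexamer and 14% for TGTGGT. These shares were not tested, and a match describes letters, not occupancy.

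Genes of mineralisation and of osteocytes also included large falls. Of 17 tested genes of mineralisation and phosphate handling 5 fell and 0 rose (median -0.33). Enpp1, which makes extracellular pyrophosphate, was at 20.1 and 16.4 FPKM in the cHet libraries and at 2.77 and 3.51 FPKM in the cHom libraries (log2 change -2.22, SE 0.17, adjusted p = 0.00929). Ank, which exports pyrophosphate and its precursor from the cell, went from 28.5 and 20.1 FPKM to 7.66 and 6.25 FPKM (log2 change -1.66, adjusted p = 0.0168). Slc13a5, a citrate transporter, went from 33.9 and 22.1 FPKM to 3.46 and 3.44 FPKM (log2 change -2.67, adjusted p = 0.00929). Phospho1, a phosphatase of matrix vesicles, fell too, from 38.5 and 31.2 FPKM to 14.2 and 17.52 FPKM, as did the low gene Enpp6, a choline phosphodiesterase that passed the filter through the cHet libraries alone. Alpl, the phosphatase that removes pyrophosphate, was at 129 and 124 FPKM against 101 and 107 FPKM and did not pass the test (adjusted p = 0.139). Smpd3, a sphingomyelinase of bone, was at 281 and 310 FPKM against 47.4 and 119.9 FPKM, with cHom libraries that differed from each other and an adjusted p of 0.0938.

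Of 12 osteocyte genes tested, 3 fell and 0 rose (median -0.77). Dmp1, an acidic matrix protein of late osteoblasts and osteocytes, was at 124 and 55.9 FPKM in the cHet libraries and at 0.900 and 2.86 FPKM in the cHom libraries. Its log2 change of -4.96 (SE 0.54, adjusted p = 0.0245) was the largest fall among the changed genes the naming rule admits. The other falls were Npy, a neuropeptide, at 1.47 and 1.40 against 0 and 0.165 FPKM, and the homeobox factor Irx3, at 67.0 and 63.5 against 35.4 and 28.9 FPKM. Npy passed the filter through the cHet libraries alone.

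Several of the largest falls lay outside these lists. Npnt (nephronectin), an integrin ligand of the matrix, was at 92.6 and 181 FPKM against 18.1 and 20.02 FPKM (log2 change -2.70, adjusted p = 0.0201). Col22a1, a collagen of tissue junctions, was at 40.0 and 24.8 FPKM against 5.03 and 6.74 FPKM (log2 change -2.25). Ass1, which makes argininosuccinate for arginine synthesis, was at 28.0 and 27.3 FPKM against 4.28 and 6.82 FPKM (log2 change -2.16). Mlip, Anxa8 (an annexin), Lrrc15, Glipr1, S100a4 (a calcium-binding protein), Mamdc2, Plb1 (a phospholipase) and Dok5 (an adaptor of receptor tyrosine kinases) completed the list of the 20 largest falls, with log2 changes between -2.91 for Mlip and -1.87 for Dok5. In each of these genes both cHom libraries were below both cHet libraries, and Mlip, Plb1 and Dok5 passed the filter through the cHet libraries alone.

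The group with the highest share of falls was not a bone group. Of 20 tested target genes of p53, the transcription factor that responds to DNA damage and other stress, 12 fell and 0 rose, with a median change of -1.13; 1 member that was not among the falls passed the filter through the cHet libraries alone. Cdkn1a (p21), the inhibitor of cyclin-dependent kinases, was at 131 and 123 FPKM in the cHet libraries and at 48.4 and 47.3 FPKM in the cHom libraries (log2 change -1.39, SE 0.10, adjusted p = 0.00898). Eda2r, a receptor of the tumour necrosis factor receptor family, was at 11.4 and 12.5 FPKM against 2.85 and 3.15 FPKM (log2 change -1.70, SE 0.14, adjusted p = 0.00972). Phlda3, an inhibitor of Akt, was at 46.4 and 48.2 FPKM against 17.4 and 18.9 FPKM (log2 change -1.34, SE 0.10, adjusted p = 0.00929). In these 3 genes the libraries of a group lay close together and the groups were far apart.

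The other p53 targets that fell spanned several functions. The apoptosis genes Pmaip1 (Noxa), Fas, Tnfrsf10b, Perp and Aen fell by 1.64, 1.46, 1.07, 1.27 and 1.30 on the log2 scale. Ccng1 (cyclin G), Trp53inp1, Zmat3 and Sesn2 (a sestrin that restrains mTORC signalling) fell by 1.30, 1.29, 1.14 and 1.12. Mdm2, the ubiquitin ligase that degrades p53, was at 35.8 and 34.1 FPKM against 17.47 and 16.75 FPKM, an adjusted p of 0.0137 with a change of -0.99, just under the size required. Bax was at 37.3 and 29.3 FPKM against 21.7 and 17.0 FPKM (adjusted p = 0.0625). Not all members were lower, since 3 of the 20 had a change above 0 and 17 a change below 0. Among the 3, Btg2 was at 148 and 92.4 FPKM against 159.8 and 181 FPKM (limma adjusted p = 0.209). Plk2, also among them, was at 28.6 and 26.8 FPKM against 27.6 and 31.1 FPKM (limma adjusted p = 0.706). The transcript of p53 itself, Trp53, looked up after the list was seen, was at 26.0 and 25.2 FPKM against 19.7 and 21.7 FPKM (log2 change -0.30, adjusted p = 0.151). The p53 list was chosen with earlier results of these data known, so its count is a description.

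**Figure D3:**
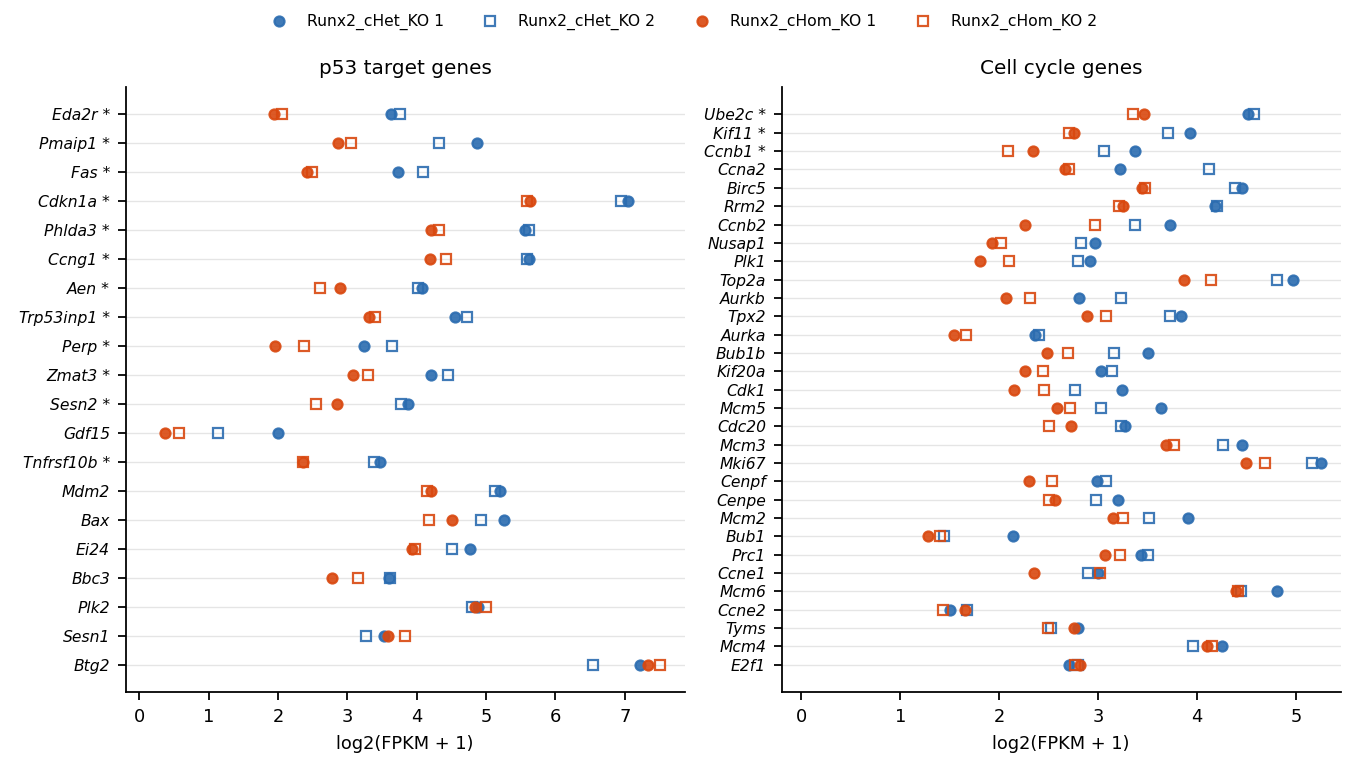
Level of every tested p53 target gene (left) and cell cycle gene (right) in log2(FPKM + 1), with 1 marker per library and an asterisk on genes that passed the test. In the left panel 12 of 20 genes are marked, from Eda2r to Tnfrsf10b; in the right panel 29 of 31 genes changed downwards, most by less than 2-fold.

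Cell cycle genes were lower by smaller amounts. Of 31 tested, 3 fell and 0 rose, but 29 had a change below 0 and the median was -0.71. Ube2c, a ubiquitin-conjugating enzyme of mitotic exit, was at 21.9 and 22.8 FPKM against 10.0 and 9.20 FPKM (log2 change -1.14, adjusted p = 0.0136). Kif11, a spindle motor, fell by 1.08 and Ccnb1 (cyclin B) by 1.002. The proliferation marker Mki67 was at 37.2 and 34.8 FPKM against 21.6 and 24.8 FPKM, a change of -0.62 with an adjusted p of 0.0403. Top2a was at 30.2 and 27.1 FPKM against 13.6 and 16.6 FPKM, a change of -0.89 with an adjusted p of 0.0264. Among D-type cyclins and inhibitors of cyclin-dependent kinases, 1 of 12 rose and 3 fell. Ccnd1 (cyclin D) was at 32.9 and 38.0 FPKM against 16.3 and 14.1 FPKM, and Cdkn2b (p15) at 2.31 and 1.99 FPKM against 0.218 and 0.205 FPKM, a gene that passed the filter through the cHet libraries alone. The inhibitor Cdkn1c (p57) moved the other way, from 237 and 187 FPKM to 489 and 479 FPKM (log2 change 1.20, adjusted p = 0.0167).

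Of 20 targets of Atf4 in the amino acid stress response 4 fell and 0 rose (median -0.46). Asns, which makes asparagine, was at 13.3 and 9.63 FPKM against 4.12 and 3.46 FPKM (log2 change -1.37, adjusted p = 0.0217). Psat1 of serine synthesis and Mthfd2 of mitochondrial folate metabolism fell by 1.13 and 1.35, and Sesn2 is counted here as well. Genes of the unfolded protein response (27), glycolysis and hypoxia (25) and cholesterol synthesis (19) gave 0 limma calls in either direction, with medians of -0.38, -0.14 and -0.13 and with 17, 11 and 3 genes at an unadjusted p under 0.05. For these 3 lists a miss at the threshold does not show equal levels: Gapdh, a glycolytic enzyme, was at 357 and 324 FPKM against 235 and 232 FPKM (log2 change -0.54, adjusted p = 0.0415).

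Markers of connective tissue fibroblasts were prominent among the rises. Of 26 tested fibroblast markers 11 rose and 0 fell, with a median change of 1.01, and none of the 26 was under 1 FPKM in both cHet libraries. Clec3b (tetranectin), a plasminogen-binding protein of fibroblasts, was at 1.96 and 6.58 FPKM in the cHet libraries and at 55.7 and 44.6 FPKM in the cHom libraries (log2 change 3.42, SE 0.48, adjusted p = 0.0335). Pi16, a marker of adventitial fibroblasts, was at 1.99 and 5.14 FPKM against 30.9 and 32.3 FPKM (log2 change 2.93, SE 0.34, adjusted p = 0.0176). Penk, which encodes the enkephalin precursor, was at 18.0 and 18.9 FPKM against 137 and 149 FPKM (log2 change 2.88, SE 0.10, adjusted p = 0.00179). The rises in Dpp4 (a surface peptidase), Cd34, Mfap5, Sema3c, Col14a1, Igfbp6 and Ebf2 were between 1.30 and 2.23. The summed level of the 26 genes was 2014 and 2361 FPKM in the cHet libraries and 3656 and 3610 FPKM in the cHom libraries. Not all fibroblast genes were higher, since Lum (lumican) was at 263 and 311 FPKM against 179 and 173 FPKM (log2 change -0.70, adjusted p = 0.0329).

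Genes of elastic fibres and matricellular proteins were also mostly higher. Of 28 genes tested, 9 rose and 1 fell, with a median change of 0.76. Tnxb (tenascin-X), a glycoprotein of collagen-rich connective tissue, was at 1.68 and 4.63 FPKM against 34.0 and 33.2 FPKM (log2 change 3.16, SE 0.35, adjusted p = 0.0167). Ltbp2, a microfibril protein, was at 13.7 and 18.1 FPKM against 64.7 and 62.3 FPKM (log2 change 1.94, SE 0.15, adjusted p = 0.00929). Thbs1 (thrombospondin) was the most abundant of the rises, at 150.01 and 204.7 FPKM against 484 and 475 FPKM. Fbn1 and Fbn2 (fibrillins), Fbln5 and Efemp1 (fibulins), Mfap5 and Thbs4 also rose, by 1.21 to 2.54. Tnc (tenascin-C) fell, from 286 and 367 FPKM to 168 and 145 FPKM (log2 change -1.05, adjusted p = 0.0254). The related Tnn (tenascin-N), singled out after its values were seen, was at 114 and 300.1 FPKM against 30.1 and 21.1 FPKM and did not pass the test (adjusted p = 0.0685).

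Of 28 collagens outside type I, 3 rose and 1 fell (median 0.67). The rises were Col5a3, at 8.996 and 13.6 FPKM against 42.0 and 38.3 FPKM, Col14a1, a fibril-associated collagen, at 46.9 and 30.4 against 120.4 and 112 FPKM, and Col4a1, of basement membranes, at 72.4 and 68.2 against 154 and 139.7 FPKM. Col3a1, the fibrillar collagen of loose connective tissue, was at 987 and 1233 FPKM against 1795 and 1805 FPKM, a change of 0.71 with an adjusted p of 0.0441. Col6a6, chosen as 1 of the 20 largest rises, was at 1.26 and 1.49 FPKM against 17.0 and 14.5 FPKM. Among matrix proteases and their inhibitors, 3 of 24 rose and 1 fell. Mmp9, a gelatinase that osteoclasts also make, was at 2.46 and 3.20 FPKM against 24.6 and 23.1 FPKM (log2 change 2.70, SE 0.15, adjusted p = 0.00499), while Ctsk, a cathepsin of osteoclasts, was at 89.7 and 91.6 FPKM against 84.1 and 77.7 FPKM (adjusted p = 0.355). The inhibitor Timp1 fell from 95.5 and 60.5 FPKM to 28.4 and 24.9 FPKM.

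**Figure D4:**
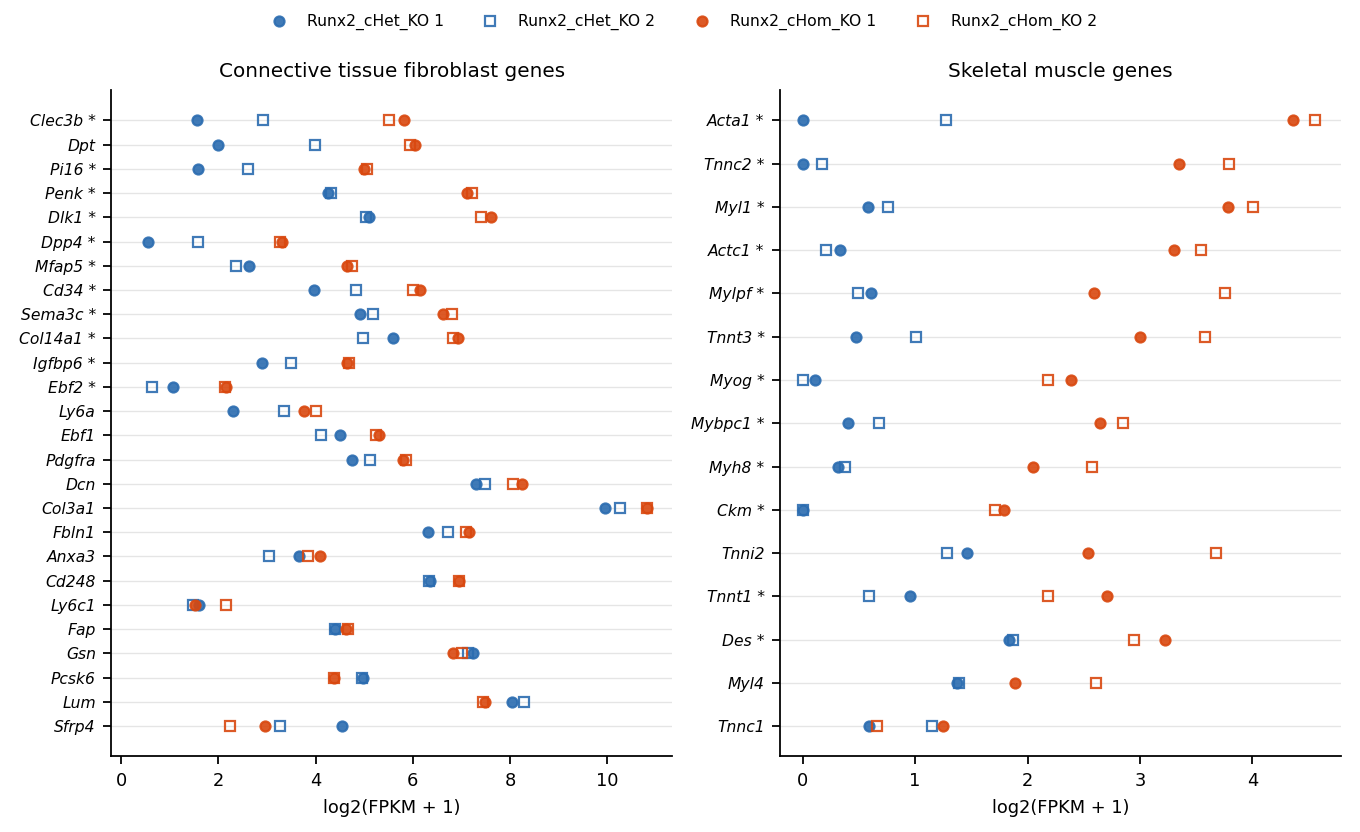
Level of every tested connective tissue fibroblast gene (left) and skeletal muscle gene (right) in log2(FPKM + 1), with 1 marker per library and an asterisk on genes that passed the test. Orange Runx2_cHom_KO markers lie to the right for most genes; the muscle genes are low in all libraries, the highest being Acta1 at 22.6 FPKM.

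Skeletal muscle transcripts were near 0 in the cHet libraries and low but clear in the cHom libraries. Of 36 listed genes 15 passed the filter on low values, 9 of these through the cHom libraries alone, so their calls are given as a description: 12 rose and 0 fell. Acta1, skeletal muscle actin, was at 0 and 1.42 FPKM in the cHet libraries and at 19.5 and 22.6 FPKM in the cHom libraries. Myl1, a myosin light chain, was at 0.501 and 0.691 FPKM against 12.8 and 15.1 FPKM. The troponins Tnnc2 and Tnnt3, the light chain Mylpf and the cardiac-type actin Actc1 were also among the 20 largest rises; Acta1 and Actc1 are close paralogs, so reads could be divided between them. The summed level of the 15 genes was 9.68 and 12.2 FPKM against 100.0 and 129 FPKM. Of the 36 listed genes 8 were listed at 0 in both cHet libraries and above 0 in a cHom library, Ckm and Myf5 among them. The part of muscle tissue in the other rises was not tested.

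Wnt pathway genes moved in both directions. Of 50 tested, 5 rose and 4 fell, with a median change of 0.13. The ligands Wnt10a and Wnt10b, which favour bone over fat, were at 3.85 and 1.64 FPKM and at 4.83 and 6.22 FPKM in the cHet libraries, and at 0.0372 and 0 FPKM and at 1.80 and 0.975 FPKM in the cHom libraries. Wnt10a, which fell, passed the filter through the cHet libraries alone, as did 1 other member, and 1 member passed through the cHom libraries alone. The co-receptor Kremen1, which acts with Dkk proteins, fell from 38.5 and 49.8 FPKM to 18.1 and 23.1 FPKM, and Tcf7 is the fourth fall. Secreted enhancers of Wnt signalling rose: Rspo3 was at 7.14 and 9.10 FPKM against 31.2 and 29.3 FPKM (log2 change 1.79, SE 0.14, adjusted p = 0.00929), and Rspo2 at 1.73 and 1.89 FPKM against 6.31 and 9.33 FPKM. So did the secreted antagonist Sfrp2, from 290 and 492 FPKM to 1086 and 996 FPKM (log2 change 1.46, adjusted p = 0.0359), the antagonist Sostdc1 and the receptor Fzd4.

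Of 47 genes of BMP and TGF-beta signalling 4 rose and 1 fell (median 0.20). The ligand Gdf10 was at 23.0 and 33.9 FPKM against 149.8 and 152 FPKM (log2 change 2.39, SE 0.19, adjusted p = 0.00929). The BMP antagonists Grem1 (gremlin) and Chrd (chordin) were low and rose, Grem1 from 0.435 and 0.523 FPKM to 5.30 and 2.69 FPKM and Chrd from 3.00 and 2.30 FPKM to 7.17 and 6.86 FPKM. Grem1 passed the filter through the cHom libraries alone. Bmp8a fell, from 4.08 and 3.47 FPKM to 1.004 and 0.660 FPKM. In the FGF list 1 of 19 genes rose, beside 2.3% of all rows tested. This was the ligand Fgf18, which went from 9.16 and 7.22 FPKM to 22.4 and 22.5 FPKM (log2 change 1.36, adjusted p = 0.0142). In the Notch list 2 of 11 rose, the nuclear targets Hey1 and Heyl, which rose by 1.37 and 1.14. In the IGF list 2 of 15 rose, the binding proteins Igfbp2, from 114 and 60.4 FPKM to 267 and 320.3 FPKM, and Igfbp6.

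Hedgehog genes gave 0 limma calls among 14 tested, with 9 at an unadjusted p under 0.05 and a median of 0.46. Ptch1, a receptor that is also a target of the pathway, was at 16.9 and 34.3 FPKM against 57.2 and 59.6 FPKM (log2 change 1.24, adjusted p = 0.092), and the co-receptor Gas1 at 25.4 and 24.3 FPKM against 49.5 and 48.9 FPKM, a change of 0.96 with an adjusted p of 0.0136. In both genes the groups did not overlap. Osteoclast-regulating signals gave 0 limma calls among 11 and complement 0 among 11, each with 4 genes at an unadjusted p under 0.05.

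Regulators of the mesenchyme that surrounds skull bone rose in small number. Of 31 cranial mesenchyme and suture genes, 3 rose and 0 fell (median 0.21). Foxc1, a forkhead factor of the meninges and skull primordia, was at 17.2 and 13.6 FPKM against 39.9 and 43.5 FPKM (log2 change 1.38, adjusted p = 0.0136). The odd-skipped factors Osr1 and Osr2 rose by 1.21 and 1.48. Prrx1, a general mesenchymal factor, was at 80.0 and 111 FPKM against 112 and 118 FPKM (adjusted p = 0.344). Among 17 meningeal markers 3 rose, Foxc1, Foxp2 and Nnat, with a median of 0.88; 3 others passed the filter through the cHom libraries alone. The summed level of the 17 was 625 and 766 FPKM against 872 and 837 FPKM.

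Guidance molecules split evenly, with 3 rises and 3 falls among 38 tested. Over all rows tested the shares were 2.3% for rises and 1.41% for falls. The secreted Ntn1 (netrin) rose from 4.67 and 5.36 FPKM to 17.2 and 17.4 FPKM (log2 change 1.60, adjusted p = 0.00929), while its receptor Unc5b fell from 28.9 and 22.5 FPKM to 10.7 and 12.7 FPKM (log2 change -1.07, adjusted p = 0.026). The semaphorin Sema3c rose, from 29.1 and 35.4 FPKM to 97.6 and 112 FPKM, whereas Sema3d and the semaphorin receptor Nrp2 fell, Nrp2 from 107 and 129 FPKM to 53.5 and 58.8 FPKM. Epha3, an ephrin receptor, rose by 1.38. Of 26 integrins and laminins 4 rose and 0 fell, Lama2, Lamc3, Itga1 and Itgbl1, by 1.03 to 1.34, and 3 others passed the filter through the cHom libraries alone. Of 14 VEGF and angiopoietin ligands 4 rose, led by Angptl1 at 5.09 and 8.51 FPKM against 51.6 and 59.7 FPKM (log2 change 2.89, adjusted p = 0.00929), and Pdgfa fell, from 23.9 and 26.0 FPKM to 7.97 and 12.2 FPKM.

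Imprinted growth genes included 5 rises and 0 falls among 17 tested (median 0.70). Dlk1, a Delta-like protein of immature mesenchyme, was at 33.1 and 32.0 FPKM against 194 and 168 FPKM (log2 change 2.44, SE 0.11, adjusted p = 0.00286). Plagl1, a zinc finger factor, was at 76.0 and 93.6 FPKM against 251 and 218 FPKM (log2 change 1.46, adjusted p = 0.0136). Rtl1, Nnat and Cdkn1c were the others. Immediate early genes, which also respond to tissue dissociation, had 6 rises and 0 falls among 29, with a median of 0.74. Fos was at 384 and 383 FPKM against 677 and 962 FPKM (log2 change 1.07, adjusted p = 0.0322), and Jun, Fosb, Egr1, Ier2 and Ctgf also rose. Their summed level was 3806 and 3410 FPKM in the cHet libraries and 5997 and 6820 FPKM in the cHom libraries, and its part in the other rises was not tested.

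Markers of further cell types were read for each library. Endothelial genes had 3 rises and 0 falls among 17, Tek, Flt1 and Esam, with all 17 changes above 0 and a median of 1.03, of which 2 passed the filter through the cHom libraries alone. Their sum was 65.4 and 42.5 FPKM against 121 and 113 FPKM. Pecam1, an endothelial junction protein, was at 4.83 and 1.33 FPKM against 11.0 and 10.4 FPKM and did not pass the test (adjusted p = 0.0881). Of 20 chondrocyte genes 1 rose, beside 2.3% of all rows tested, but 17 had a change above 0 and the median was 0.73. The rise was Chad (chondroadherin), from 5.81 and 10.7 FPKM to 37.6 and 25.2 FPKM. The 20 genes summed to 477 and 303 FPKM in the cHet libraries and to 558 and 741 FPKM in the cHom libraries. Col10a1, a collagen of hypertrophic chondrocytes that Runx2 is known to regulate, was singled out after its values were seen. It was at 0.202 and 26.9 FPKM in the cHet libraries and at 69.7 and 98.7 FPKM in the cHom libraries. The cHet libraries differed widely and the adjusted p was 0.407. The 3 tested erythroid genes summed to 472 and 28.2 FPKM against 465 and 163 FPKM. Limma gave 0 calls among these and among the 22 macrophage and monocyte genes, with 0 at an unadjusted p under 0.05 in either list. Of 8 osteoclast genes 1 rose, Mmp9. Smooth muscle and pericyte genes had 3 rises and 0 falls among 14, and neural and Schwann genes 2 rises and 0 falls among 9. Epithelial and keratinocyte genes had 2 rises and 3 falls among 7. In these lists 1, 2 and 3 members passed the filter through the cHom libraries alone. Of 16 tendon, ligament and periosteum genes 3 rose, Thbs4, Cilp and Egr1, and 1 fell, Tnc; 3 of the 16, Cilp among them, passed the filter through the cHom libraries alone.

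**Figure D5:**
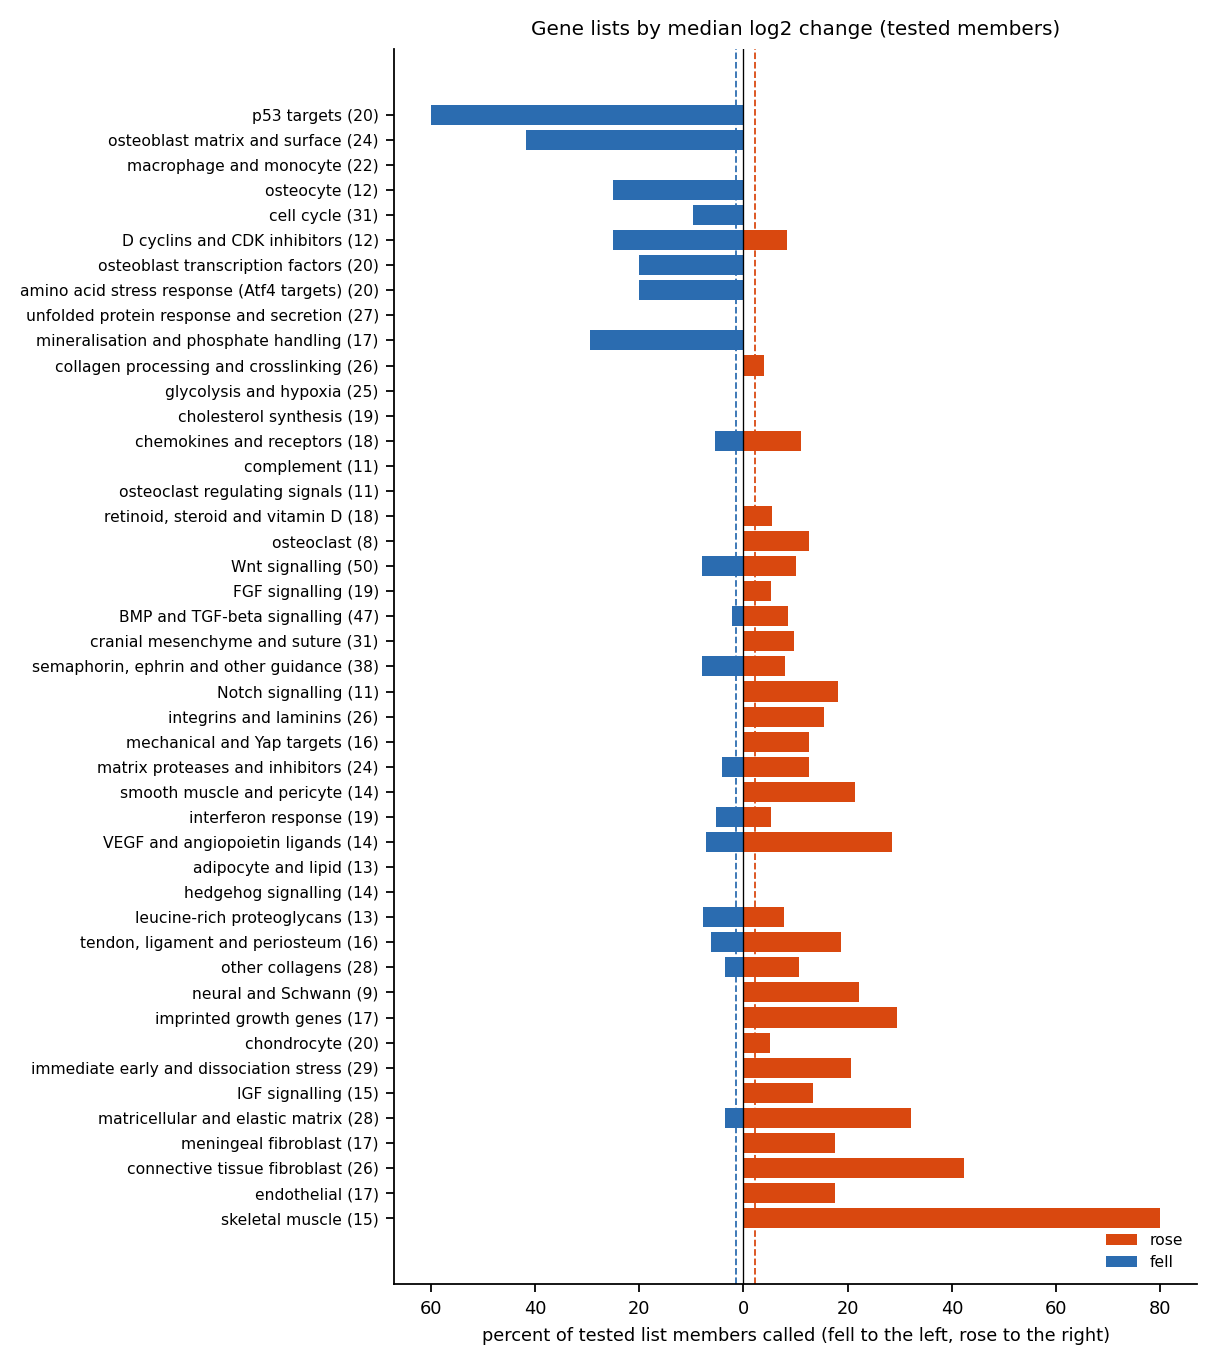
Percent of the tested members of each gene list that rose (right, orange) or fell (left, blue), for lists with at least 8 tested members, ordered by median log2 change with the lowest at the top and the number tested in brackets. Dashed lines mark the shares over all 11546 genes, 2.3% for rises and 1.41% for falls. The longest blue bars are those of p53 targets and osteoblast matrix, and the longest orange bars those of skeletal muscle and fibroblast genes. Of the 15 tested muscle genes 9 passed the filter through the cHom libraries alone, so that bar is not comparable with the dashed line.

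The rib chondrocyte sorts of the same series gave a reading of the changed genes in other skeletal cells, whose labels name no Runx2 genotype. These were Col2+ and Col10+ cells of ICR mice at postnatal day 1, sorted by a Col2a1-ECFP or a Col10a1-mCherry transgene and deposited as 1 value per sort, so there is no test. Of 93 genes that fell in cHom osteoblasts and reached 5 FPKM in a sort, 35 (37.6%) were at least 2-fold higher in Col10+ cells and 19 (20.4%) at least 2-fold lower. Of 99 such genes that rose, 29 (29.3%) were higher and 39 (39.4%) lower. Over 7577 tested genes the shares were 11.7% and 13.8%. Transcripts of other cell types differed between the sorts as well. In Col2+ and Col10+ cells the macrophage gene C1qb was at 0 and 122 FPKM, the globin Beta-s at 1.52 and 650 FPKM and the endothelial Pecam1 at 0.0844 and 21.9 FPKM. The epithelial Epcam went the other way, at 11.5 and 3.41 FPKM. The part of such cells in these shares and in the values below was not tested. Sp7 was at 0.374 FPKM in Col2+ and 19.4 FPKM in Col10+ cells and Dmp1 at 24.4 and 111 FPKM, while Spp1 went the other way, at 3400.1 and 1614 FPKM. Among the rises, Penk was at 277 and 43.6 FPKM and Dlk1 at 778 and 106 FPKM. Other rises went the other way, with Mmp9 at 0.359 and 87.0 FPKM and Thbs4 at 0.897 and 29.8 FPKM.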

How the data were processed

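RNA of 4 osteoblast libraries was prepared with a SMARTer Stranded Pico kit, per the labels' protocols. The submitters' processing notes name TopHat2 2.1.0, Cufflinks, Cuffdiff 2.2.1 and the build mm9, in no stated order. Values were deposited as FPKM, which the authors computed, 1 per library for osteoblasts and 1 per sort for rib chondrocytes, per the file headers; 1 further chondrocyte column matched no sample and was not used.

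From the 23061 rows, 26 whose names had become dates and 494 naming several genes were set aside, and of 292 repeated names the row with the highest mean was kept. Genes reaching 1 FPKM in 2 libraries or more were tested on log2(FPKM + 1), which understates changes of low genes, with limma 3.58.1 in R 4.3.3 (trended, robust variances, Benjamini-Hochberg over all 11546 rows). Calls needed a log2 change of 1 or more in size together with an adjusted p under 0.05; SE are limma's. The procedure was tested on simulated data with independent normal noise and known changes, which checked the mean estimates. That does not show how reliable calls from so few libraries are. Depth is unknown, so no counting intervals are given. A value of 0 can be a failed estimate: Hmgcs1, a housekeeping gene of cholesterol synthesis, is listed at 0 in all 4 libraries.

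The comparison and the 52 gene lists were chosen with earlier results of these data known, so lists are described by counts and medians beside those of all rows; 1 gene is not reported here and was left out of its list and the list's counts. Named were Runx2, Sp7, Spp1, the 20 largest rises and falls (no small RNAs, predicted genes or accessions), called list members and up to 4 of the most abundant others per list; exceptions are stated. Promoter windows come from a RefSeq table of GRCm38.p6 and were matched by symbol, for 114 of 163 falls, 180 of 266 rises and 8561 of 11546 genes tested. Alternatives were another pseudocount, other filters, centring, quantile normalisation, plain variances, rows of several genes, a replicate block and leaving out each library.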

Additional observations from a re-analysis of the deposited data

How the results depend on the processing

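The main counts of 266 rises and 163 falls stayed within 1.5 times under a pseudocount of 0.1 (268 and 182), a filter at 5 FPKM (186 and 122), centring (277 and 149), quantile normalisation (252 and 166), plain variances (215 and 123) and rows of several genes (274 and 165). With no filter they were 147 and 95, over 17902 rows. The replicate numbers were checked for pairing: deviations of same-numbered libraries correlated at -0.0504 over 11546 genes. With only 2 pairs, this cannot show whether same-numbered libraries shared a litter, a preparation or a batch. The replicate block gave 147 rises and 106 falls, of which 141 and 102 were shared with the main fit. Leaving out a library gave 0 to 394 rises and 0 to 269 falls. The log2 change ranged from -0.70 to -0.40 for Runx2, from -1.98 to -1.64 for Sp7 and from -2.50 to -2.16 for Spp1; the last pair lost their call without either cHom library, which leaves the spread to the cHet pair, and kept it under every other setting. The count of p53 targets that fell was 0 without either cHom library and 11 to 13 under the settings that keep all libraries. The cell cycle falls numbered 7 with a pseudocount of 0.1 against 3. Under the replicate block osteoblast transcription factor falls numbered 2 against 4 and mineralisation falls 3 against 5, and with no filter the immediate early rises numbered 2 against 6. Of 172 other genes named in the text, the settings that keep all libraries turned none to the opposite sign; 42 lost their call with no filter, 35 under the block, 24 with plain variances, 6 with a pseudocount of 0.1, 4 with quantile normalisation and 3 with centring. With a library left out, the log2 change ranged from -1.85 to 4.37 for Xist, from -0.83 to 3.39 for Ddx3y and from -9.75 to 1.29 for Snord61, so these signs rest on single libraries. Depth limits the genes near 1 FPKM most.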

Other observations

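Further genes, named after their values were seen, lay outside the lists. Known p53-responsive genes outside the list fell as well: Psrc1 was at 26.5 and 30.5 FPKM in the cHet libraries and at 7.43 and 10.4 FPKM in the cHom libraries (log2 change -1.59, limma adjusted p = 0.0164), and Ephx1, an epoxide hydrolase, at 57.3 and 71.9 FPKM against 24.0 and 25.2 FPKM (log2 change -1.35). Rps27l was at 75.6 and 81.7 FPKM against 36.0 and 27.3 FPKM, and the row of the microRNA Mir34a at 6.69 and 6.46 FPKM against 1.31 and 2.32 FPKM. Gtse1, Zfp365 and Lrdd fell by 1.49, 1.48 and 1.08. Because they were picked for having changed, they add no independent support. Mdm4, which restrains p53, was at 13.1 and 14.2 FPKM against 12.6 and 13.4 FPKM (adjusted p = 0.76). Of 41 tested histone rows 7 fell and 0 rose, 40 had a change below 0 and the median was -0.84; these near-identical copies share reads, so single rows are uncertain.

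Among the rises were 3 genes known from the inner ear, picked after their values were seen. Otor (otoraplin) was at 1.59 and 2.77 FPKM against 13.7 and 24.7 FPKM (log2 change 2.64, adjusted p = 0.018), Oc90 (otoconin) at 0 and 0.0833 FPKM against 4.01 and 8.90 FPKM, and Coch (cochlin) at 0.229 and 0.660 FPKM against 4.40 and 7.19 FPKM; the last pair passed the filter on low values through the cHom libraries alone. Of single genes, Ifngr1, a receptor of interferon gamma, went from 39.9 and 38.8 FPKM to 17.9 and 17.6 FPKM, and Egfr, the epidermal growth factor receptor, rose from 11.1 and 11.0 FPKM to 25.5 and 29.2 FPKM. Ptgs2, the inducible cyclooxygenase, rose from 42.4 and 29.4 FPKM to 89.8 and 84.2 FPKM. The largest rises of all carried no gene name of known function in these files. The accession BC107364 was at 6.49 and 4.31 FPKM against 270.0 and 307 FPKM (adjusted p = 0.00179), and the small nucleolar RNA Snord92 was listed at 0 in both cHet libraries and at 64.1 and 108.8 FPKM in the cHom libraries.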
